A study of Mus musculus with 16 samples.

Results

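Livers that lack the bile acid receptor FXR were compared with wild-type livers at 5 weeks of age. The comparison used 4 of the 16 arrays of the study, 2 from FXR-/- mice and 2 from wild-type mice. Its members were the probes with a detection p under 0.01 on both arrays of at least 1 of these groups, 9739 of 24613 probes (39.6%). Of these, 8634 named 1 gene each, and the brightest probe stood for each of 7274 genes, of 15967 genes that the array names. The study measured liver RNA on Illumina mouse Ref-8 bead arrays in 8 groups of 2 arrays, which were wild type, FXR-/-, SHP-/- and the FXR/SHP double knockout at 3 and at 5 weeks. All mice were labelled male, C57Bl/6 and fed normal chow. The FXR-/- line was congenic after backcrossing to C57BL/6, and the labels name no Cre driver or tissue promoter. The wild-type mice were bought from Harlan Sprague Dawley, so genotype and source of the animals cannot be told apart. The SHP-/- line was also congenic, and the double knockout came from a cross of both single lines. Nothing in the labels says that duplicates came from different mice. Each p-value therefore covers the spread between duplicate arrays, pooled over the 8 groups, and that spread may be technical.

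FXR, encoded by Nr1h4, is a nuclear receptor that bile acids activate in hepatocytes and in the ileum. It induces the repressor SHP (Nr0b2) in the liver and the hormone FGF15 in the gut, and both lower Cyp7a1, the enzyme that limits the rate at which bile acids are made. It also induces the pump that moves bile salts into bile, and genes of lipoprotein, glucose and detoxification metabolism are known to respond to it.

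The 4 arrays lay side by side on 1 slide, detected 38.99% to 39.66% of all probes and had mean signals of 197.2 to 208.8, so a batch by slide is absent from the comparison, whereas position on the slide and genotype cannot be told apart. Of 12 measured hepatocyte markers 1 rose and 1 fell, and their mean level was 11.89 and 11.90 in wild type and 11.89 and 11.88 in FXR-/-. Duplicates differed by 1.23 (wild type) and 1.24 (FXR-/-) bead standard errors, as the SD over 8072 probes, and arrays of different genotype by 3.12 to 3.16. Levels below are background-corrected, quantile-normalised intensities on a log2 scale, given for each array. Differences are FXR-/- minus wild type on that scale with the standard error of the limma fit (n = 2 arrays per group). The words rose and fell are kept for genes whose p, adjusted over all 9739 probes, was under 0.05. At that threshold 1345 of the 7274 genes (18.5%) were called. Higher calls numbered 707 (9.72%) and lower calls 638 (8.77%). A change of at least 2-fold was found in 250 genes (3.44%), upward in 117 and downward in 133. The median difference of all genes was 0.01, and 2157 genes had an unadjusted p under 0.05. Among probes, 1747 were called (17.9%), 9.38% higher and 8.55% lower. That is 52.3% of calls in the higher direction, and with median scaling in place of the quantile step 39.4% of 1564 were. Since arrays did not overlap between the groups for 59.8% of genes, a lack of overlap alone says little about a gene.

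Nr1h4 was checked first. In wild type its level was 10.55 and 10.60, and without FXR it was 5.92 and 5.97. It fell 24.8-fold (adjusted p = 5.3e-16), and a signal called detected remained on both FXR-/- arrays. The probe of Nr0b2 was not detected in either group, nor were those of Fgfr4, the liver receptor for FGF15, and of Slc51a and Slc51b, the subunits of the basolateral bile acid exporter. The SHP branch of the feedback could therefore not be read at the transcript level.

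Of 11 measured members of the receptor axis 4 fell and none rose, Nr1h4 included, against 8.77% of all genes that fell. Foxo1, a transcription factor of the fasting response, was at 7.21 and 7.35 in wild type and at 6.58 and 6.42 in FXR-/-, and it fell by 0.78 ± 0.11 (adjusted p = 4.3e-05). Nr1i2, the xenobiotic receptor PXR, was at 8.71 and 8.75 against 7.96 and 7.96 and fell by 0.77 ± 0.09 (adjusted p = 6.0e-06). The hepatocyte factor Hnf4a fell by 0.32 ± 0.08 (adjusted p = 7.0e-03), the smallest of the falls, and this call was lost without FXR-/- array 2 (-0.31, adjusted p = 0.052). Nr5a2 (LRH-1), the activator of Cyp7a1 on which SHP acts, differed by 0.02 ± 0.15 and Nr1h3 (LXR-alpha) by 0.14 ± 0.07, neither past the threshold. Mafg, which encodes a repressor that FXR is known to induce, differed by -0.32 ± 0.12 (adjusted p = 8.8e-02).

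Of 14 measured genes of bile acid synthesis 2 rose and 2 fell. Cyp7a1 was at 8.55 and 8.72 in wild type and at 11.53 and 11.50 in FXR-/-, a 7.37-fold rise (adjusted p = 2.0e-13). Cyp8b1, the sterol 12-alpha-hydroxylase that directs synthesis to cholic acid, rose from 12.63 and 12.61 to 13.36 and 13.35, or 1.66-fold (adjusted p = 3.1e-06). Both genes were higher on each FXR-/- array than on either wild-type array. Slc27a5, the bile acid-CoA ligase of conjugation, fell from 12.50 and 12.55 to 11.96 and 11.92 (adjusted p = 1.1e-05). Abcd3, a peroxisomal transporter for side chain oxidation, fell by 0.33 ± 0.10 (adjusted p = 2.7e-02), a call that was lost without FXR-/- array 1 (-0.19) and without either wild-type array. The other 10 members did not pass the test. Among them Cyp27a1, which starts the alternative pathway, differed by -0.23 ± 0.08, Cyp7b1 by 0.06 ± 0.12 and the conjugating enzyme Baat by 0.0 ± 0.24. The median difference over the 14 members was -0.04.

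**Figure D1:**
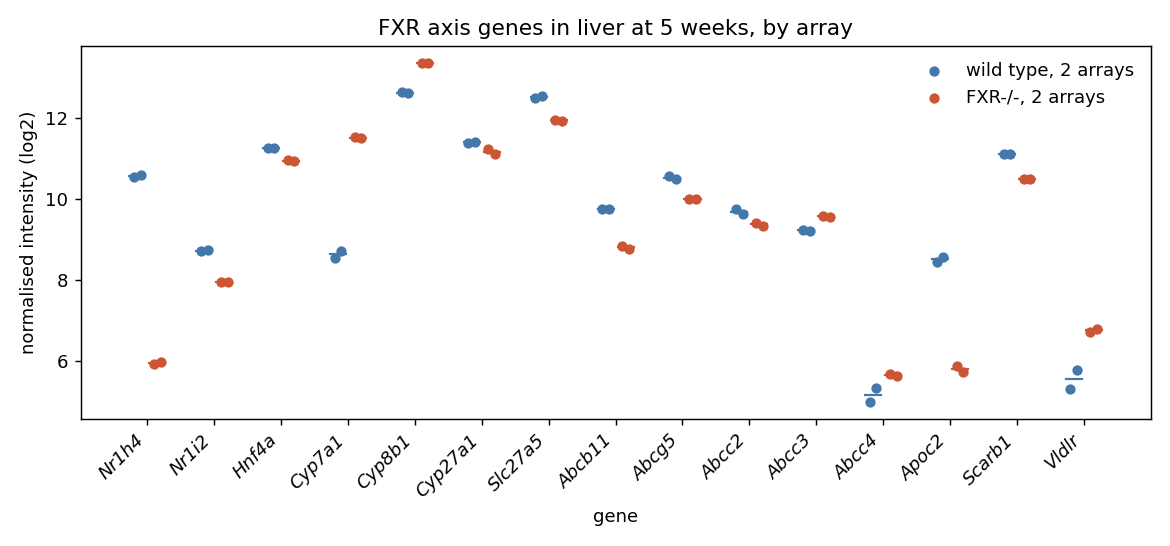
Normalised intensity (log2, vertical axis) of 15 genes of the FXR axis on each of the 4 arrays at 5 weeks, with blue points for wild type and red points for FXR-/- and short lines at the mean of 2 arrays. Nr1h4 drops from above 10 to below 6, Cyp7a1 rises by 2.88, and the transporter genes shift by less than 1 log2 unit.

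Among 11 measured transporters of bile acids, sterols and conjugates 3 fell and 2 rose. Abcb11, the bile salt export pump of the canalicular membrane, was at 9.75 and 9.76 in wild type and at 8.85 and 8.76 in FXR-/-, a fall of 0.95 ± 0.09 or 1.93-fold (adjusted p = 3.4e-07). Abcg5, a subunit of the sterol exporter, fell by 0.52 ± 0.09 (adjusted p = 3.6e-04), and Abcc2 (MRP2), which exports conjugates, fell by 0.32 ± 0.08 (adjusted p = 1.2e-02). Abcc3 (MRP3) and Abcc4 (MRP4), the basolateral efflux pumps, showed the opposite direction. Abcc3 rose from 9.24 and 9.21 to 9.59 and 9.55 (adjusted p = 2.5e-02), and Abcc4 from 4.99 and 5.33 to 5.67 and 5.63 (adjusted p = 2.1e-02). The phospholipid flippase Abcb4 differed by -0.12 ± 0.07, and the uptake carriers Slc10a1 and Slco1b2 by 0.29 ± 0.15 and 0.17 ± 0.13, none past the threshold. The call of Abcc3 was lost when any 1 of the 4 arrays was left out (0.33 to 0.36), and that of Abcc4 was lost without FXR-/- array 1, FXR-/- array 2 or wild-type array 1 (0.32 to 0.51) and in the deposited processed values (0.20). Abcc2 was not called without FXR-/- array 2 (-0.28) or wild-type array 1 (-0.25). Without FXR-/- array 1, FXR-/- array 2 or wild-type array 1 the called members numbered 3, 2 and 2, and Abcb11 and Abcg5 were the calls kept in each of these fits.

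The promoter of Abcb11 is shown because its letters hold a close match to the inverted repeat that FXR binds with RXR, and that of Slco1b2 because it matches as well while its transcript did not pass the test. Both are 300 bases from RefSeq (GRCm38.p6), 250 before the transcription start and 50 after it, at chr2:69342567-69342866 on the minus strand and chr6:141629268-141629567 on the plus strand. Capitals mark the match to an inverted repeat of the half-site AGGTCA with 1 base (N) between, which reads the same on both strands, with 11 of its 12 fixed letters.
Abcb11: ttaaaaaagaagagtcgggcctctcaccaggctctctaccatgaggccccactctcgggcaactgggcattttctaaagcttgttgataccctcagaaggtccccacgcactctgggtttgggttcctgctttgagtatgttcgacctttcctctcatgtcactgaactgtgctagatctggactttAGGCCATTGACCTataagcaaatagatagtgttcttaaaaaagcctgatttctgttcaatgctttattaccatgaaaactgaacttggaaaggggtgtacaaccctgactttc
Slco1b2: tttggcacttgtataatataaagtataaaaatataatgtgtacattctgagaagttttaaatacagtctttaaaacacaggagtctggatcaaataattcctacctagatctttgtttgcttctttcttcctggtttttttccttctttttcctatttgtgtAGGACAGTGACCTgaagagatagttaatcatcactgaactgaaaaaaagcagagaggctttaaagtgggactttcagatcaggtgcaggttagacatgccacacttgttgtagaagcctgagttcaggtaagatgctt
The match lies 63 to 51 bases before the start of Abcb11 and 88 to 76 bases before that of Slco1b2. Such a match was found in 8 of 5947 promoters of measured genes (0.135%), of which 3 rose, 2 fell and 3 did not pass. Of 43 searched promoters from the receptor, synthesis, transport and FXR target lists, these 2 held it. The windows end 250 bases before the start, and no site was sought beyond them.

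Of 25 measured genes that are reported FXR targets in liver 7 fell and 3 rose, with a median of -0.02. Apoc2, the apolipoprotein that activates lipoprotein lipase, was at 8.44 and 8.57 in wild type and at 5.87 and 5.72 in FXR-/-, a 6.55-fold fall (adjusted p = 5.8e-12). Scarb1, the HDL receptor, fell by 0.63 ± 0.11 (adjusted p = 5.3e-04), and Apoa5 by 0.48 ± 0.15 (adjusted p = 2.9e-02), a call lost without either FXR-/- array or without wild-type array 2 (-0.38 to -0.51). Vldlr, the VLDL receptor, rose from 5.32 and 5.78 to 6.72 and 6.80 (adjusted p = 1.1e-06). The remaining calls were Nr1h4, Abcb11, Abcc2, Slc27a5, Cyp7a1 and Cyp8b1, described above. The other 15 targets did not pass, among them the apolipoproteins Apoa1 and Apoc3 and the fibrinogen chains Fga and Fgg. Outside the FXR target list, Apoa4, an apolipoprotein of triglyceride-rich particles, rose 5.52-fold, from 7.0 and 6.81 to 9.36 and 9.38 (adjusted p = 3.3e-11).

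Many conjugation and detoxification genes were higher in FXR-/-. Sult2a2, a hydroxysteroid sulfotransferase, was at 5.44 and 5.82 in wild type and at 9.62 and 9.53 in FXR-/-, 15.4-fold higher (adjusted p = 2.4e-15). Of 18 measured sulfotransferases, glucuronosyltransferases and partner enzymes 5 rose and 1 fell. Sult1c2 rose by 1.10 ± 0.15, Papss1, which makes the sulfate donor, by 0.76 ± 0.13 and Ugt1a2 by 0.47 ± 0.12, and Sult1d1 fell by 0.50 ± 0.10. The call of Ugt1a2 was lost without FXR-/- array 2 (0.25) and without wild-type array 1 or 2 (0.44 and 0.50). Of 21 measured targets of NRF2, the oxidative stress factor, 13 rose and 3 fell, with a median of 0.40. Of 21 targets of the xenobiotic receptors CAR and PXR 12 rose and 4 fell, with a median of 0.35. Many members sit on both lists. The glutathione transferases Gstm2, Gstm3 and Gsta1 rose 2.23-fold, 2.11-fold and 2.06-fold, and Gsta4 rose 1.86-fold. Against them Osgin1 fell by 0.86 ± 0.10, Cyp2c55 by 1.38 ± 0.13 and Cyp2b9 at least 1.25-fold, since its probe was not detected on the FXR-/- arrays.

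Of 34 measured members of the list of cytochromes P450 (families 1 to 4), which also holds their electron donor cytochrome b5 (Cyb5a, not past the threshold), 9 rose and 10 fell. Cyp2c39, at 5.07 and 5.05 in wild type, was at 10.12 and 10.12 in FXR-/-, the largest difference upward among genes detected on all 4 arrays at 33.3-fold (adjusted p = 8.5e-17). Its relative Cyp2c50 rose 7.03-fold (adjusted p = 3.9e-10). Cyp4a12b, a male-biased fatty acid hydroxylase, went from 10.79 and 10.87 to 7.33 and 7.26, an 11.6-fold fall (adjusted p = 7.3e-14), whereas the probe of its near-identical copy Cyp4a12a rose 1.62-fold (adjusted p = 1.6e-05). Cyp2a4, a female-biased steroid hydroxylase, rose 3.08-fold (adjusted p = 1.4e-11). Probes of the Cyp2c, Cyp4a, Sult2a, Gstm, Saa, Serpina1 and Hbb families may also bind close relatives, and their identity is uncertain.

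Sex-biased genes of liver moved in both directions at 5 weeks. Among 15 male-biased genes 4 rose and 5 fell, and among 10 female-biased genes 4 rose and 3 fell. The male-biased fatty acid elongase Elovl3 was at 8.79 and 8.88 in wild type and was not detected on the FXR-/- arrays, a fall of at least 15-fold (adjusted p = 7.7e-15). Serpina1e, a male-biased alpha-1-antitrypsin gene, fell 5.32-fold (adjusted p = 1.6e-13). The Y-linked gene Eif2s3y was at 7.34 and 7.0 in wild type and not detected in FXR-/- (at least 4.72-fold lower, adjusted p = 3.3e-09), whereas Kdm5d, also Y-linked, differed by 0.30 and did not pass. At 3 weeks both of these Y-linked genes fell and neither was detected on the FXR-/- arrays (median difference -2.01). Between double knockout and SHP-/- at 5 weeks neither was called. The annotation names no probe for Xist, and the labelled sex of the FXR-/- mice was not tested further.

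Of 22 measured genes of fatty acid and triglyceride synthesis 13 rose and 2 fell, with a median of 0.32. Pnpla3, a lipid droplet protein induced by feeding, rose from 4.92 and 4.79 to 7.05 and 7.05 (adjusted p = 2.8e-10). It was detected on 1 wild-type array. The elongase Elovl6 rose 2.69-fold, Thrsp, a thyroid hormone-responsive lipogenic factor, 2.0-fold, Pklr, the liver pyruvate kinase, 1.86-fold and the fatty acid synthase Fasn 1.83-fold. Without FXR-/- array 1 or wild-type array 1, 9 members of the list were called.

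Of 18 measured genes of cholesterol synthesis and its regulator SREBP-2, 11 rose and none fell, with a median of 0.37. The mean of the list was 8.69 and 8.66 in wild type and 9.10 and 9.09 in FXR-/-. It was 9.14 and 9.16 in wild type at 3 weeks and 9.13 and 9.07 in SHP-/- at 5 weeks. Wild type at 5 weeks thus had the lowest mean of the groups used here. Fdps, the farnesyl diphosphate synthase, was at 11.50 and 11.51 in wild type and at 12.37 and 12.39 in FXR-/- (adjusted p = 2.4e-08). Squalene epoxidase (Sqle) rose from 9.06 and 9.01 to 9.97 and 10.06 (adjusted p = 2.2e-06). The rises of Mvd, Msmo1 and Hsd17b7 were 0.89 ± 0.12, 0.88 ± 0.11 and 0.67 ± 0.10. With median scaling, or without wild-type array 2, 7 members were called.

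Of 17 measured genes of gluconeogenesis and amino acid catabolism 9 fell, 1 rose (Hpd, an enzyme of tyrosine breakdown) and 7 did not pass, with a median of -0.36. Pck1, the enzyme committed to gluconeogenesis, was at 8.98 and 9.12 in wild type and at 7.15 and 7.36 in FXR-/-, 3.48-fold lower (adjusted p = 3.7e-08). Its coactivator Ppargc1a fell from 7.50 and 7.55 to 5.82 and 5.89, or 3.18-fold (adjusted p = 1.8e-10). Without FXR-/- array 1 or wild-type array 1, 6 members of the list were called. Ass1 of the urea cycle and Agxt of glyoxylate metabolism fell 1.74-fold and 1.47-fold. Of 19 targets of PPAR-alpha and genes of fatty acid oxidation 4 fell and 1 rose, with a median of -0.03. Among the falls were Cyp4a14 at 2.83-fold, the lipase inhibitor Angptl4 at 2.15-fold, the peroxisomal thiolase Acaa1b at 1.92-fold and Cyp4a10 at 1.39-fold.

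**Figure D2:**
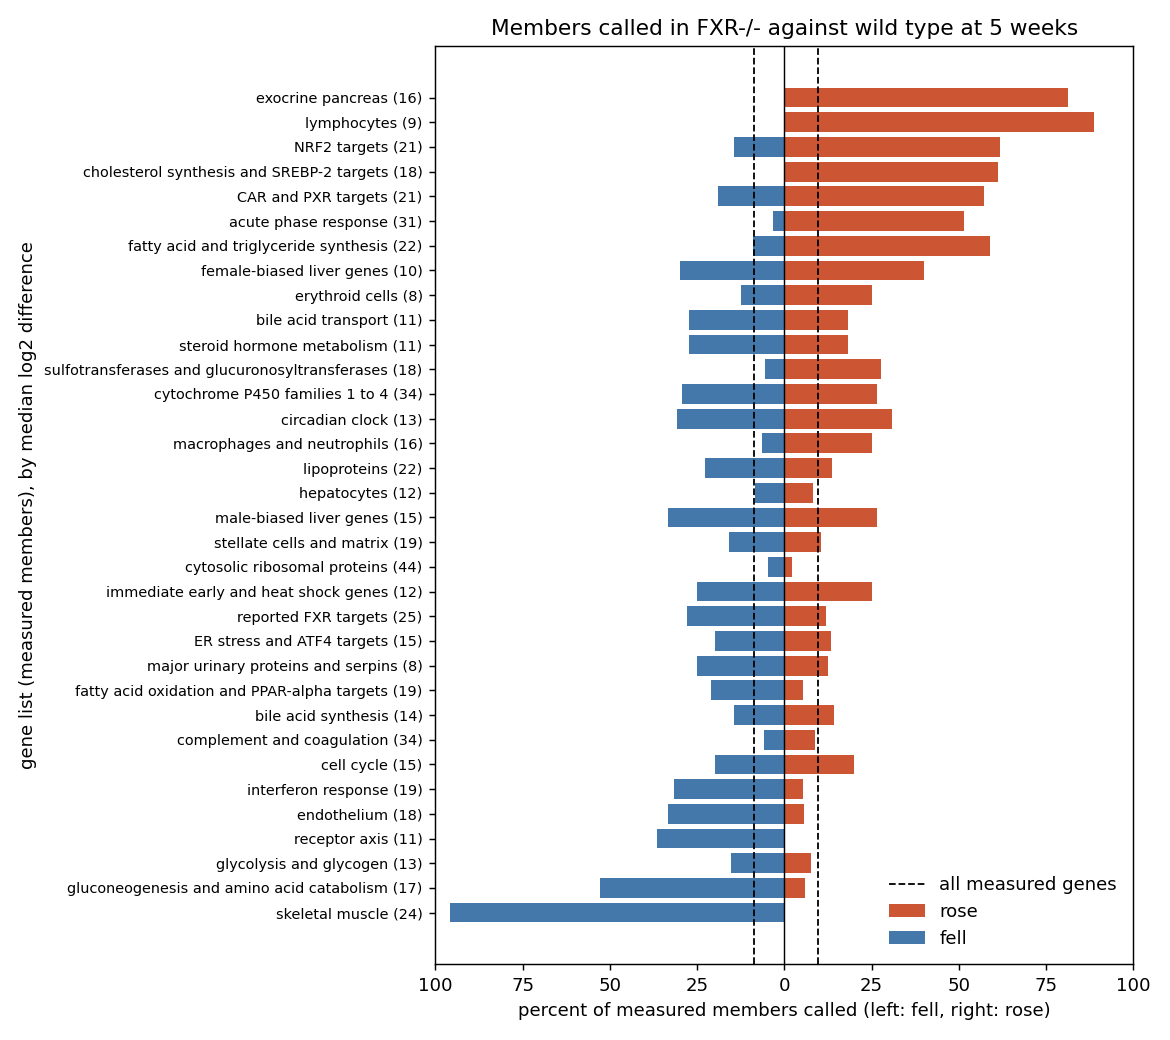
Share of the measured members of each gene list that rose (red, to the right) or fell (blue, to the left) in FXR-/- at 5 weeks, in percent, for lists of at least 8 measured members, whose number stands in brackets. Dashed lines mark the shares among all genes, 9.72% and 8.77%, and lists are ordered by their median log2 difference, with exocrine pancreas at the top and skeletal muscle at the bottom.

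Of 31 measured genes of the acute phase response, the change in liver secretion during inflammation, 16 rose and 1 fell, with a median of 0.33. Serum amyloid Saa2 was at 7.33 and 7.04 in wild type and at 11.14 and 11.13 in FXR-/-, 15.5-fold higher (adjusted p = 1.2e-14). Saa1 rose 4.79-fold, the pentraxin Apcs 4.24-fold, the siderophore binder Lcn2 4.08-fold and the metallothionein Mt1 2.27-fold. The neutrophil chemokine Cxcl1 rose from 7.97 and 7.86 to 10.39 and 10.44 (adjusted p = 1.8e-11). Interferon response genes did not share this direction, as 1 of 19 rose and 6 fell. Igtp, an interferon-induced GTPase, was the gene that rose, by 1.15 ± 0.09, and Ifit3 fell at least 2.23-fold. The complement and coagulation list, with 3 of 34 higher and 2 lower, had 14.7% of its members called, below the 18.5% of all genes.

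Markers of cells other than hepatocytes were read in whole-liver RNA, where fewer cells of a type and less RNA per cell cannot be told apart. Of 9 measured lymphocyte genes 8 rose, but 5 of the 9 were not detected on every wild-type array and entered through their high group. Of the 4 detected on all arrays 3 rose, with a median of 0.84 against 0.01 for the 6502 genes detected on all 4 arrays. Of those 6502 genes 16.6% were called in either direction. H2-Eb1, a class II antigen chain, was at 6.15 and 5.75 in wild type and at 7.01 and 7.06 in FXR-/- (adjusted p = 9.0e-06), and its partner Cd74 rose by 0.86 ± 0.10 (adjusted p = 3.3e-06). The T cell genes Ccl5 and Cd8b1 and the B cell gene Cd79b rose 2.17-fold, 1.94-fold and 1.89-fold, and each was detected on 1 of the 2 wild-type arrays. Among 18 endothelial genes 6 fell and 1 rose. Lyve1, a hyaluronan receptor of sinusoidal endothelium, fell from 6.62 and 6.79 to 5.60 and 5.66 (adjusted p = 5.5e-06), Flt1 fell by 0.55 ± 0.10 and Cdh5 by 0.51 ± 0.15. The call of Cdh5 was lost without FXR-/- array 2 (-0.36) and without either wild-type array (-0.49 and -0.52), and without wild-type array 2 the list had 4 calls. Fcer1g, the signalling chain of immunoglobulin receptors in macrophages, was at 7.41 and 7.37 in wild type and not detected in FXR-/-, at least 5.51-fold lower (adjusted p = 3.7e-14). Tyrobp did not pass, nor did the 3 C1q chains. Of 16 macrophage and neutrophil genes 4 rose, of which Marco and S100a9 were detected on 1 wild-type array. Of the 13 detected on all 4 arrays 2 rose and none fell, against 16.6% called of all genes so detected.

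The beta-globin probes gave opposite results. Hbb-b2 was not detected in wild type and was at 9.30 and 9.53 in FXR-/-, at least 22.7-fold higher (adjusted p = 4.6e-16), and Hbb-bt was at 7.33 and 7.38 in wild type and not detected in FXR-/-, at least 5.37-fold lower (adjusted p = 8.8e-11). Both genes encode near-identical chains, and the identity of their probes is uncertain, as said above. The directions were also opposite at 3 weeks, with 5.02 for Hbb-b2 and -3.14 for Hbb-bt, which was not detected in FXR-/- there either. Between double knockout and SHP-/- at 5 weeks the differences were 2.87 and -1.54. Of 8 measured erythroid genes 2 rose and 1 fell.

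Clock, immediate early and cell cycle genes moved in both directions. Dbp, an output gene of the circadian clock, rose from 7.27 and 7.44 to 9.74 and 9.56, or 4.89-fold (adjusted p = 2.8e-11), while Arntl (BMAL1) fell by 0.73 ± 0.13 and Per2 rose by 0.70 ± 0.12. Of 13 clock genes 4 rose and 4 fell, and the hour of killing was not given in the labels. The immediate early gene Egr1 fell 2.35-fold, within a list of 12 of which 3 rose and 3 fell. Cdkn1a, the cell cycle inhibitor p21, was at 7.60 and 7.77 in wild type and at 6.04 and 5.90 in FXR-/- (adjusted p = 3.6e-09), and the cyclin Ccnd1 fell by 0.80 ± 0.09 (adjusted p = 3.1e-06). Of 15 measured cell cycle genes 3 rose and 3 fell, with a median of -0.06, and those that rose were Mcm4, Mcm5 and Mcm6, subunits of the replicative helicase. The part of sampling time and handling in the other results was not tested.

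Skeletal muscle genes were among those with the largest differences downward. Atp2a1, the calcium pump of fast muscle, was at 9.99 and 10.06 in wild type and not detected in FXR-/-, at least 34.1-fold lower (adjusted p = 5.0e-18). Skeletal actin (Acta1) fell from 11.24 and 11.12 to 5.89 and 5.95, and the troponin Tnni2 fell at least 26.7-fold. Of 24 measured muscle markers 23 fell. Their mean was 7.67 and 7.61 in wild type and 4.78 and 4.75 in FXR-/-, where 18 of the 24 were not detected. Of the 6 detected on all 4 arrays 5 fell, with a median of -2.25. Outside the list, Fabp3, a muscle fatty acid binding protein, and Rpl3l, the muscle form of a ribosomal protein, fell at least 17.2-fold and at least 5.73-fold. Exocrine pancreas genes moved the other way. Chymotrypsinogen (Ctrb1) was not detected in wild type and was at 7.84 and 7.91 in FXR-/-, at least 7.79-fold higher (adjusted p = 3.0e-14), and the elastase Cela2a rose from 5.78 and 5.89 to 8.08 and 8.11. Of 16 measured pancreas markers 13 rose. The mean of the list was 5.34 and 5.33 in wild type, with 11 of 16 not detected, and 6.52 and 6.47 in FXR-/-. Of the 5 detected on all 4 arrays 2 rose. For muscle and pancreas alike, the share called of all genes detected on all 4 arrays was 16.6%. Within each group both arrays had the same muscle and pancreas levels to within 0.1. The part of muscle and pancreas RNA in other results was not tested. Without the 48 measured genes of the muscle, pancreas, adipose and gut lists, 1303 of 7226 genes (18%) were called.

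**Figure D3:**
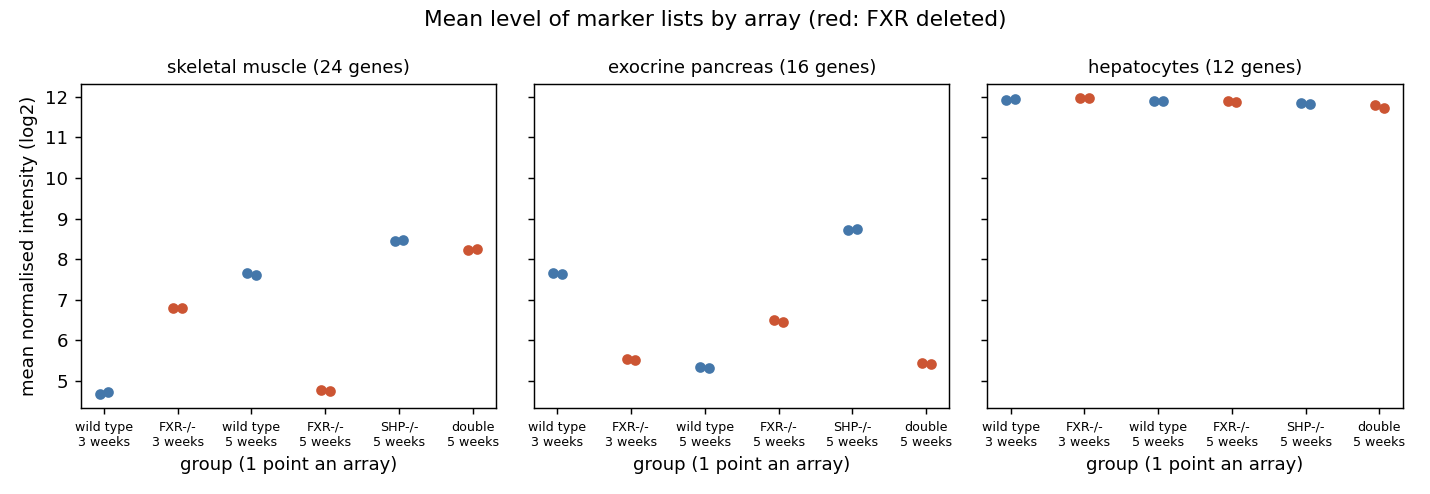
Mean log2 intensity of the measured skeletal muscle, exocrine pancreas and hepatocyte markers on each array (1 point an array) of the 6 groups used here, with red for groups that lack FXR. Muscle markers are lowest in wild type at 3 weeks and in FXR-/- at 5 weeks, pancreas markers are highest in SHP-/-, and hepatocyte markers lie between 11.73 and 11.96 on all of these arrays.

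Other large changes were those of single genes with varied roles. Abhd1, which encodes a hydrolase of little-known function, rose from 5.74 and 5.95 to 9.47 and 9.58 (adjusted p = 1.8e-13). Psmc3ip, a recombination cofactor, was not detected in wild type and rose at least 6.76-fold. The phospholipase-like gene Gdpd3, detected on 1 wild-type array, rose 8.05-fold. Asns, the asparagine synthetase that the stress factor ATF4 induces, rose 4.96-fold (adjusted p = 5.0e-11), in a list of 15 stress genes of which 2 rose and 3 fell. Mgst1, a microsomal glutathione transferase, was at 13.55 and 13.35 in wild type and at 9.21 and 9.28 in FXR-/- (adjusted p = 9.5e-15). The lysosomal acid lipase Lipa went from 9.72 and 9.87 to 6.08 and 6.09 (adjusted p = 1.5e-13). Erdr1 was at 9.71 and 9.74 in wild type and at 5.32 and 4.58 in FXR-/-, where it was detected on 1 array.

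The same deletion was also measured on arrays that the comparison does not share, in FXR-/- against wild type at 3 weeks and in the double knockout against SHP-/- at 5 weeks. All 3 comparisons took their error from the same fit. At 3 weeks 1660 genes (22.8%) were called, 11.5% higher and 11.4% lower, and on the SHP-/- background 1669 (22.9%), 12.8% higher and 10.1% lower. The difference between ages was called for 9.07% of genes and 8.67% of probes. The difference between SHP backgrounds was called for 13.9% of genes and 13.7% of probes (7.18% higher, 6.5% lower), and 23.1% of probes were called on the SHP-/- background. Of the 1345 genes called at 5 weeks 1043 (77.55%) had the same sign at 3 weeks, and 645 of these were also called there, while 110 were called with the opposite sign. On the SHP-/- background 946 (70.33%) had the same sign, 516 of them called, and 134 were called with the opposite sign. Across all genes the 5-week differences correlated with those at 3 weeks at r = 0.303 and with those on the SHP-/- background at r = 0.286, over genes that share their arrays and are no independent replicates. In all 3 comparisons 370 genes were called in the same direction, 218 higher and 152 lower, and 52 of them changed at least 2-fold in each.

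**Figure D4:**
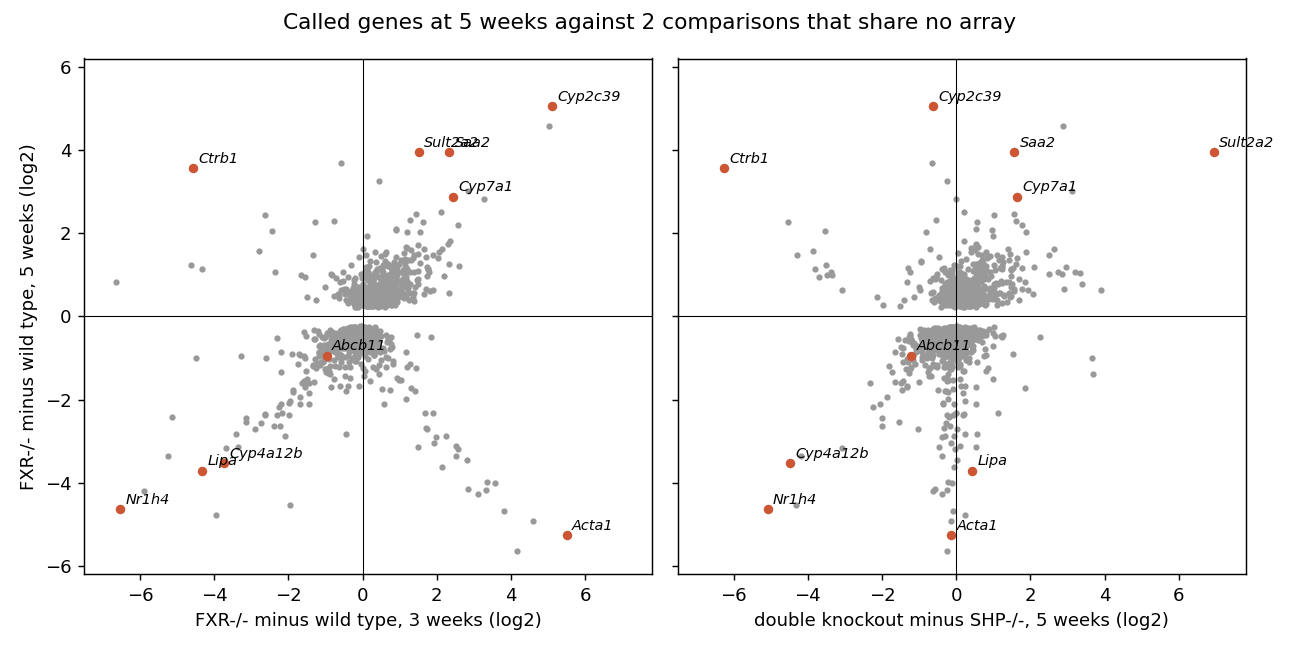
Difference at 5 weeks (vertical axis, log2) of the 1345 called genes against the difference at 3 weeks (left) and that between double knockout and SHP-/- at 5 weeks (right), with 10 genes in red and named. Cyp7a1, Saa2, Cyp4a12b and Nr1h4 lie on the same side in both panels, Acta1 changes sides at 3 weeks and Ctrb1 in both panels, and Cyp2c39 and Lipa lie near 0 or on the other side in the right panel.

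Core genes of bile acid handling recurred. Cyp7a1 rose by 2.45 at 3 weeks and by 1.64 on the SHP-/- background, and the rise was larger with SHP present (adjusted p = 7.0e-06 for the difference). For Abcb11 the differences were -0.96 and -1.22, beside -0.95 at 5 weeks, and the difference between backgrounds did not pass (adjusted p = 2.0e-01). For Cyp8b1 the rises were 1.19 and 0.33. The increase of Sult2a2 was 1.51 at 3 weeks and 6.94 without SHP, smaller and larger than the 3.94 at 5 weeks (adjusted p = 6.9e-10 and adjusted p = 2.8e-11). For Apoc2 the differences were -2.91 and -1.04, for Elovl3 -1.96 and -4.30 and for Cyp4a12b -3.74 and -4.48, all called. Elovl3 was not detected in FXR-/- at either age or in the double knockout at 5 weeks, so no fold is read from its differences. Cyp4a12b was not detected in FXR-/- at 3 weeks, nor Pnpla3 in wild type at 3 weeks, so their 3-week differences are against background. Pnpla3, Elovl6, Gstm2, Lcn2 and Cyp2a4 rose at least 2-fold in all 3 comparisons. Of the FXR target list 5 members rose and 7 fell at 3 weeks, and 6 rose and 7 fell on the SHP-/- background.

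Other groups of genes gave different counts. Of the 18 cholesterol synthesis genes 1 rose and 2 fell at 3 weeks, and none rose and 5 fell on the SHP-/- background. The difference between ages passed for 9 of the 18, against 9.07% of all genes, and Fdps differed by 0.16 at 3 weeks (adjusted p = 1.2e-01) and by -0.15 without SHP (adjusted p = 1.5e-01). Of the lymphocyte genes 2 rose at 3 weeks, and 3 rose and 3 fell on the SHP-/- background. Of the 15 male-biased genes 2 rose and 10 fell at 3 weeks, and 1 rose and 8 fell on the SHP-/- background. Of the 10 female-biased genes 6 rose and 2 fell at 3 weeks, and 8 rose and 1 fell on the SHP-/- background. Of the 31 acute phase genes 12 rose and 4 fell at 3 weeks, with a median of 0.02. On the SHP-/- background 10 of them rose and 3 fell, with a median of 0.05. Pck1 fell by 0.46 at 3 weeks, less than at 5 weeks (adjusted p = 2.6e-04), and differed by -0.27 on the SHP-/- background (adjusted p = 2.2e-01). All 16 pancreas markers fell in both other comparisons, where their mean was 8.73 on both SHP-/- arrays against 5.44 and 5.42 in the double knockout, and 7.65 and 7.63 in wild type at 3 weeks against 5.54 and 5.52 in FXR-/-. Among the muscle markers 21 of 24 rose at 3 weeks, and 1 rose and 7 fell on the SHP-/- background. Cyp2c55 rose by 3.68 and Cyp4a14 by 1.0 on the SHP-/- background, where both had fallen with SHP present (adjusted p = 7.8e-13 and adjusted p = 5.3e-12 for the differences).

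A set of 36 genes was chosen by these values. Its members were called and changed at least 2-fold the same way in FXR-/- at both ages. Between double knockout and SHP-/- they differed by under 0.5 in that direction. The difference between SHP backgrounds had to have an adjusted p under 0.05 as well. In this set 13 rose and 23 fell. Cyp2c39 rose by 5.11 at 3 weeks and differed by -0.64 on the SHP-/- background. Lipa fell by 4.32 at 3 weeks and differed by 0.44, and for Fcer1g, not detected in FXR-/- at either age, the values were -3.34 and 0.53. Also in the set were Erdr1, Eif2s3y, Serpina1e, Cxcl1, Asns and Angptl4. As these groups had been selected on the values, no test of them is given.

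Position on the chromosome was read from the gene order of GRCm38.p6, since the build of the array was not given in the sources used here. Among the 50 measured genes nearest to Nr1h4 on chromosome 10, 25 on each side, 6 rose and 6 fell (24%), against 14.5% of the 297 other measured genes of the chromosome. Of all genes 18.5% were called. Amdhd1, an enzyme of histidine breakdown 7 measured genes from Nr1h4, was at 10.98 and 10.91 in wild type and at 9.20 and 9.28 in FXR-/- (adjusted p = 1.2e-11), with -1.54 at 3 weeks and -1.34 on the SHP-/- background. Only Tle6 and Ndufa12 of the other called neighbours were called the same way in both other comparisons. Socs2 rose at 5 weeks and fell in both. Mybpc1 and Btg1 fell at 5 weeks and rose at 3 weeks. Slc41a2 rose at 5 weeks and fell on the SHP-/- background. The remaining called neighbours were called in neither. Of all 7274 genes 52 changed at least 2-fold in all 3 comparisons. Of these 10 were among the 255 measured genes of chromosome 14 (3.92% of them) and 8 among the 602 of chromosome 7 (1.33%). The share was 1.27% on chromosome 15 and 1.15% on chromosome 10, close to that of chromosome 7. The 10 genes of chromosome 14 lay within a run of 96 consecutive measured genes, among them Ang, Supt16, Ndrg2 and Psmb5, which were lower, and Lrtm1 and Fitm1, which were higher. The run was noticed after the values had been seen, and it is given as a description.

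**Figure D5:**
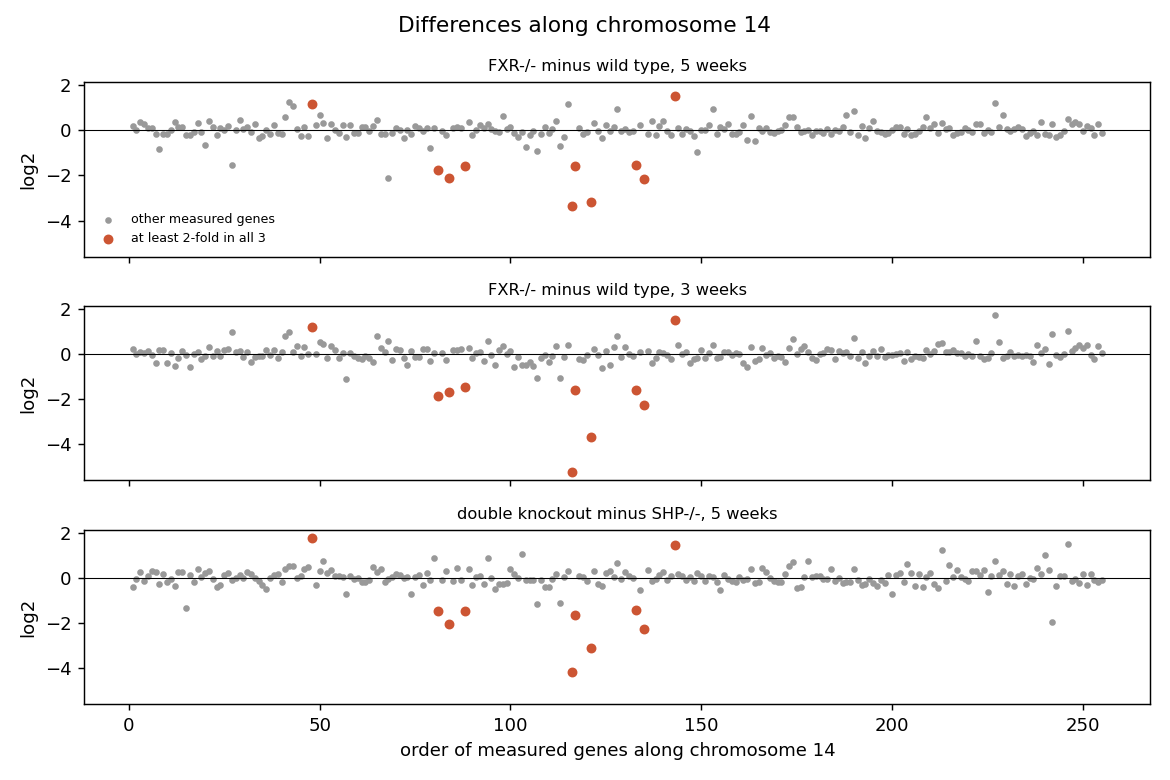
Difference (log2) of each of the 255 measured genes of chromosome 14 in order along the chromosome, for FXR-/- minus wild type at 5 weeks, the same at 3 weeks and double knockout minus SHP-/- at 5 weeks. The 10 genes in red changed at least 2-fold in all 3 and lie between the 48th and 143rd measured gene, with 8 below and 2 above 0 in each panel.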

How the data were processed

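Liver RNA was hybridised to Illumina Ref-8 bead arrays. The deposited table gives each probe's mean intensity and detection p-value per array, from BeadStudio per the submitters' processing notes, not normalised by the authors. The authors' deposited processed values, checked against these arrays, are log2 and quantile-like, with identical column medians of 6.22. Background was corrected and arrays quantile-normalised with neqc of limma 3.58.1 (R 4.3.3, offset 16, negative controls inferred from detection p-values) over all 16 arrays. A linear model of 8 group means with a mean-variance trend (8 residual degrees of freedom) was fitted, and p-values were adjusted by Benjamini-Hochberg over the 9739 member probes and called at 0.05. It was tested on simulated data. The number of arrays, 2 per group, limits the precision.

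Of 24613 probes 20984 had 1 gene symbol in the platform annotation, 1 had several and 3628 had none. The brightest member probe stood for a gene with several. A gene not detected on either array of a group is given as at least a fold, from the lowest detected signal or the probe's own, whichever was higher. The deposited table has 858 control probes that were left out, and 16 further value columns were not used. Named genes were the largest changes, up to 5 called members per list, all measured members of the 4 bile acid and receptor lists and the largest differences between ages. Amdhd1 and the other named neighbours of Nr1h4, Cyp4a12a and the genes of the chromosome 14 run were added after their values were seen. The members and lists were chosen with earlier results of these data known. Replicate numbers did not pair the arrays. The alternatives were other background correction, scaling, filters, array sets and variance models, the authors' deposited values, a fold threshold and each array left out.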

Additional observations from a re-analysis of the deposited data

Results flagged for a closer look

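Of the 105 genes named with values, 55 had an effect of FXR loss at 5 weeks that differed from that at 3 weeks by the test of the difference itself (limma, adjusted p under 0.05 over all 9739 probes). The named genes were chosen in part for their size of change and for such differences, so their number is not set against the share of all genes. Each value here is the 5-week difference minus the 3-week difference on the log2 scale. The 3-week arrays lay on another slide, so age and slide cannot be told apart. Atp2a1, Tnni2, Fabp3, Rpl3l, Ctrb1, Cyp2b9, Elovl3, Nr1h4, Ifit3 and Psmc3ip were not detected in at least 1 of the 4 groups behind their value, so theirs are fitted values against background and no fold is read from them. Elovl3 and Cyp2b9 were not detected in FXR-/- at either age, and their values restate a difference between the wild-type groups.

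Tissue markers had the widest differences. For muscle genes and their companions the values were -10.76 for Acta1, -9.80 for Atp2a1, -9.53 for Tnni2, -8.50 for Fabp3 and -4.97 for Rpl3l, as their differences were positive at 3 weeks and negative at 5 weeks. For pancreas genes they were 8.12 for Ctrb1 and 3.54 for Cela2a, with the signs turned.

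Among receptors and bile acid genes the values were 1.89 for Nr1h4, -0.81 for Foxo1, -0.40 for Hnf4a, -0.46 for Cyp8b1, -0.58 for Abcc3, -1.39 for Vldlr and 1.03 for Apoa4. For Nr1h4 the probe was detected on no FXR-/- array at 3 weeks and on both at 5 weeks. Among conjugation, cytochrome and oxidative stress genes they were 2.44 for Sult2a2, -0.90 for Ugt1a2, -0.52 for Cyp2a4, -0.74 for Cyp4a14, -0.77 for Cyp4a10, 1.71 for Cyp4a12a, 3.49 for Cyp2b9, 1.35 for Osgin1 and 1.67 for Mgst1.

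In lipid and glucose metabolism, the genes of cholesterol synthesis all had positive values, 0.73 for Sqle, 0.70 for Mvd, 1.12 for Msmo1, 0.72 for Fdps and 0.57 for Hsd17b7. The others were -0.59 for Pklr, -1.34 for Pck1, -1.28 for Ppargc1a, -0.50 for Agxt, -1.01 for Acaa1b and 0.60 for Lipa.

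For acute phase genes the values, which are differences of effects and not of levels, were positive. They were 0.63 for Saa1, 1.62 for Saa2, 1.19 for Apcs, 0.82 for Lcn2 and 1.10 for Mt1. Immune and endothelial genes gave 1.01 for Ccl5, 1.02 for H2-Eb1, 0.83 for Cd8b1, 0.83 for Cd79b, -0.91 for Lyve1 and -0.58 for Ifit3.

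For genes of sex bias, clock, early response and proliferation the values were -2.57 for Elovl3, 2.73 for Serpina1e, 3.06 for Dbp, -2.68 for Egr1, -3.04 for Cdkn1a and -0.91 for Ccnd1. The remaining genes gave 4.26 for Abhd1, 2.83 for Psmc3ip, 1.02 for Asns and -0.83 for Erdr1.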

How the results depend on the processing

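The count of called probes at 5 weeks was 1747, and it stayed within 1.5 times that number under each alternative run except a test against a fold of 1.2, which left 674. Without 1 of the 4 arrays it was 1173 to 1227. Median scaling in place of the quantile step moved the median of all member probes from 0.0 to -0.05 and the share of higher calls from 52.3% to 39.4% (616 higher, 948 lower). It also moved that share from 52.5% to 63.7% for the difference between SHP backgrounds. The cause was not tested. Over the 105 genes named with values, 1608 combinations of gene and alternative kept direction and call, 45 lost the call, 8 gained it (Mafg and Cyp27a1, 4 each) and none reversed. Genes near the detection limit have bounds rather than folds, which limits what can be read from the lymphocyte, muscle and pancreas lists.

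With the replicate number as a block within age, 1686 probes were called at 5 weeks, 778 for the difference between ages, 2148 on the SHP-/- background and 1248 for the difference between backgrounds. The deviations of same-numbered arrays correlated at 0.01 between FXR-/- and wild type and at -0.11 to 0.02 between pairs of 5-week groups, so the numbers were not read as pairs.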
